A study of Mus musculus with 14 samples.

Results

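The genes described here code for the organic anion and organic cation transporters of the liver: the organic anion transporting polypeptides (Slco genes), the organic cation, carnitine and organic anion transporters (Slc22a genes), the multidrug and toxin extrusion proteins (Slc47a genes), the phosphate, urate and vesicular transporters of the Slc17a genes, and the organic solute transporter subunits (Slc51 genes). They were chosen by symbol, with no threshold on their levels, but with earlier results of these data known. The deposited files held 54 of them among 55357 genes, with 15 Slco, 26 Slc22a, 2 Slc47a, 9 Slc17a and 2 Slc51 genes.

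RNA-seq of whole liver was compared between 8 model and 6 control mice. All were C57BL/6 males, 5 to 6 weeks old before they were acclimatised. Model mice had been given LPS (lipopolysaccharide, from the outer membrane of bacteria) at 10 µg/kg and D-GalN (galactosamine, which is toxic to hepatocytes) at 300 mg/kg into the peritoneum, a combination used to bring on acute liver failure. Controls had been given saline, and livers of both groups were collected after 24 h. The labels of the controls carry the name of the disease as well, and the group is taken from the label that calls them control. They name no genetic alteration in either group and do not state that each library comes from a separate animal, so the p-values measure the spread between these libraries.

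Hepatocytes take organic ions from blood through their sinusoidal membrane, largely by Slco and Slc22a proteins, change them chemically, and pass them into bile through canalicular pumps and through Slc47a1. Bile acids, bilirubin, steroid conjugates, prostaglandins, thyroid hormones, carnitine, thiamine and many drugs travel by these routes. Several of these genes are under the control of hepatocyte transcription factors and bile acid sensing nuclear receptors, and many members of the families are known mainly from kidney, brain, intestine or testis.

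Model libraries held 10329469 to 16639972 counts in genes and control libraries 7914120 to 14463540. Levels are given as CPM, counts scaled to library size after TMM correction for library composition. A call means an adjusted p under 0.05 in edgeR's quasi-likelihood test. Of the hepatocyte markers Alb, Apoa1, Apob, Ttr, Ahsg, Fgb, Cps1, Ass1, Cyp2e1, Cyp3a11, Tat and Hnf4a, 5 of 12 were called higher in model and 0 lower, with summed levels of 99130 to 110553 CPM in model and 63482 to 90024 CPM in control. Alb weighs most in this sum, with a mean of 52287 CPM in model and 29439 CPM in control, and 7 of the 12 were not called. Kidney tubule markers, included because many of these transporters are kidney genes, summed to at most 1.09 CPM in any library, and Aqp2, Nphs1 and Slc5a2 had no count. All 8 neutrophil markers were called higher, summing to 1222 to 2845 CPM in model and 3.79 to 16.4 CPM in control, with Ly6g at 0 in every control. Of 8 monocyte markers 6 were called higher and 0 lower. Of 8 sinusoidal endothelial markers 4 were higher (Stab1, Lyve1, Pecam1, Cdh5) and 2 lower (Clec4g, Kdr), and their sum was 233.5 to 469.6 CPM in model and 115.4 to 174.8 CPM in control. Of 8 Kupffer cell markers, 3 were called higher and 3 lower. All 4 platelet markers were higher, summing to 7.38 to 48.2 CPM in model and 1.93 to 2.89 CPM in control. Of 8 stellate cell markers 6 were higher and 1 lower, with sums of 394.3 to 808.2 CPM in model and 186.9 to 237.7 CPM in control.

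Slco3a1 rose in every model liver and Slc17a8 fell, while the abundant uptake transporters Slco1b2, Slco1a1 and Slc22a30 were not called. Enough counts for a test were present for 26 of the 54. Of these 26, edgeR called 4 higher and 3 lower, which is 26.9%, where 47.9% of all 12915 genes tested were called. By direction, 15.4% of the 26 were called higher against 26.6% of all genes, and 11.5% lower against 21.3%. A difference of at least 2-fold with a call was found for 3 genes higher and 1 lower, beside 20.3% and 12.7% of all genes. Both counts of higher genes include Slc22a26, which passed the filter on low counts through 6 model libraries and 1 control library. Model and control libraries occupied separate CPM ranges for 1 of the 26, Slco3a1, and for 23.2% of all genes. The median log2 fold change of the 26 was -0.02, beside 0.01 for all genes. The split between higher and lower depended on scaling: library totals in place of TMM factors, which moved the median of all genes to -0.23, gave 2 higher and 6 lower, and upper-quartile factors (median -0.14) gave 3 and 4. Without model 2 the count was 2 higher and 4 lower, and without control 6 it was 8 and 3.

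The intervals show how large a difference the genes without a call could still have. They are per gene and not adjusted for the number of genes tested, unlike the calls. Those of Slc17a3, Slc22a7, Slc47a1 and Slco2a1 therefore left out a fold change of 1 although these genes were not called. For 12 of the 19 genes without a call, the 95% interval of the fold change lay within 2-fold in both directions. The exceptions were Slc22a5, Slc22a7, Slc22a23, Slc22a28, Slc47a1, Slc51b and Slco2a1, for which a 2-fold difference was inside the interval. Among the 26 transporter genes tested, called or not, 14 (53.8%) had such an interval, beside 33.0% of all 12915 genes tested. In bulk liver, fewer cells of a type and less RNA per cell cannot be told apart, and a level in CPM says nothing of the amount of transporter RNA in the whole organ.

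**Figure D1:**
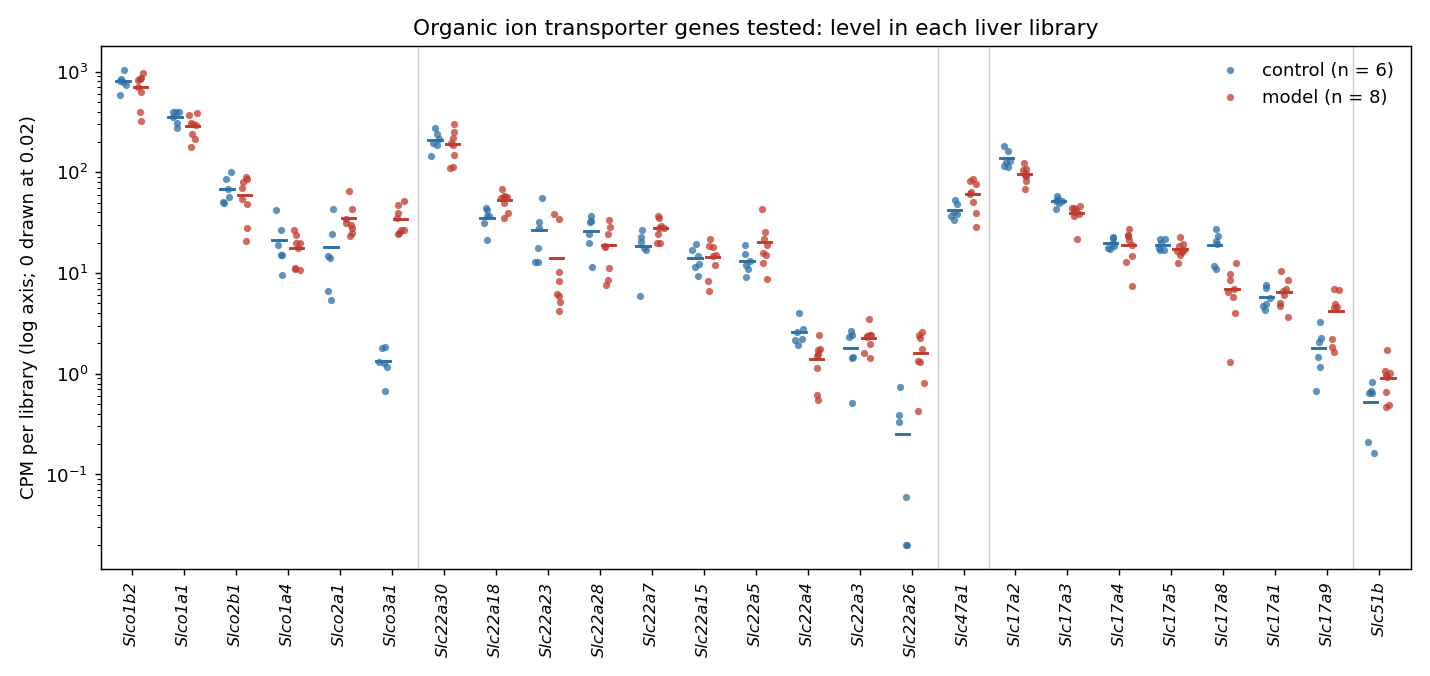
Level of 25 of the 26 transporter genes tested, in CPM on a log axis, with a point for each of 6 control (blue) and 8 model (red) libraries and a bar at the group mean; grey lines separate the Slco, Slc22a, Slc47a, Slc17a and Slc51 genes. Slco3a1 is the gene whose groups do not overlap, with controls from 0.675 to 1.84 CPM and model libraries from 24.7 to 52.2 CPM.

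Of the other 28 genes, 11 had no count in any of the 14 libraries: Slc17a6, Slc22a2, Slc22a6, Slc22a12, Slc22a13, Slc22a16, Slc22a19, Slco1a6, Slco6b1, Slco6c1 and Slco6d1. A count of 0 over the 14 libraries allows a level of up to 0.0171 CPM, which covers counting error only. They include the kidney uptake transporters for organic anions (Slc22a6), cations (Slc22a2) and urate (Slc22a12), the neuronal vesicular glutamate transporter Slc17a6 and the Slco6 genes, known from testis.

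Sequence similarity limits what some of these counts can say, and the clearest case is Slc22a28 and Slc22a30, members of a rodent cluster of organic anion transporter genes. Their coding sequences in the GENCODE M21 transcripts have the same length, 1656 bases, and differ at 20 of them (98.8% identity), with the longest identical run being 431 bases. The stretch from base 627 to base 776 of the coding sequence holds 5 of these differences, which are in capitals below, and reads that miss such bases cannot be assigned to either gene.
Slc22a28: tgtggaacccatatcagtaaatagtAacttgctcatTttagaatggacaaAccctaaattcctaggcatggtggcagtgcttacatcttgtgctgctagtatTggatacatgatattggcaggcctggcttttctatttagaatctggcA
Slc22a30: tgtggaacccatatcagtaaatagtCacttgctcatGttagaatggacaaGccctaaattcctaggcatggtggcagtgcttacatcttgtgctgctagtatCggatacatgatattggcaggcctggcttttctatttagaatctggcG
Of all 100-base stretches of the longest transcript, 37.0% of those of Slc22a28 and 24.3% of those of Slc22a30 also occur in another gene. The same share was 13.7% for Slc22a5, which resembles Slc22a21, and at most 1.10% for Slco1a1 and Slco1a4. The share of deposited entries set aside as aligned to several places was 13.4% to 18.6% per library.

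A second sequence is shown because it belongs to the transporter gene with the highest CPM and carries a short motif searched for. The 250 bases before the start of Slco1b2 in the RefSeq promoter table lie at chr6:141629268-141629517 on the plus strand of GRCm38.p6, and capitals mark TGACCT, the reverse complement of AGGTCA, a nuclear receptor motif.
Slco1b2: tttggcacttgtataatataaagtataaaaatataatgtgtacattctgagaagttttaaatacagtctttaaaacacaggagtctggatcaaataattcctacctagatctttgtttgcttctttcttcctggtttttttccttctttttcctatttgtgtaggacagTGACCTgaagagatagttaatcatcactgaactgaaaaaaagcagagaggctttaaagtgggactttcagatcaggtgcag
The table held promoters for 20 of the 26 genes tested (24 start sites). AGGTCA on either strand was in 5 of the 24, at Slc17a1 (both of its start sites), Slc51b, Slco1a1 and Slco1b2, and in 14.0% of 32851 windows of the same length over all genes. TGACTCA, the AP-1 motif, was in 1 of the 24, at Slc51b, and in 4.46% of all. The motifs share letters (TGACCT and TGACTCA both begin with TGAC), and a match is a description of the sequence only.

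Among the Slco genes, the abundant hepatocyte uptake transporters were not called. Slco1b2 (ENSMUSG00000030236.11), which takes up bilirubin conjugates, bile acids and statins, ranged from 325.0 to 977.3 CPM in model (median 771.6) and from 588.3 to 1047 CPM in control (median 792.0). The model range contained most of the control range, and the fold change was 0.871 (95% interval 0.613 to 1.24, adjusted p = 0.515). Model 7 and model 8, at 396.1 and 325.0 CPM, lay below every control, while the other 6 model libraries, at 633.9 to 977.3 CPM, did not. Slco1a1 (ENSMUSG00000041698.12), a carrier of bile acids and steroid conjugates that is typical of male liver, ranged from 180.6 to 385.5 CPM in model (median 299.7) and from 274.4 to 396.6 CPM in control (median 376.5). Its fold change was 0.810 (interval 0.610 to 1.08, adjusted p = 0.208), and it was called lower with library totals only (log2 fold change -0.57, adjusted p = 0.0128). Together these genes made up 91.2% of all Slco CPM in control and 86.7% in model, on average.

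Slco2b1, a carrier of steroid sulphates and drugs, ranged from 21.04 to 90.4 CPM in model (median 62.0) and from 49.3 to 101.6 CPM in control (median 62.4), with a fold change of 0.868 (interval 0.558 to 1.35, adjusted p = 0.598). Its 2 lowest libraries were again model 8 and model 7, at 21.04 and 28.2 CPM. Part of its exons (7.91%) is shared with Gm15635 on the other strand in GRCm38, and the strand setting of the counting is not given. Slco1a4, known for the uptake of cardiac glycosides, ranged from 10.8 to 26.9 CPM in model (median 18.7) and from 9.48 to 42.1 CPM in control (median 17.2). Its fold change was 0.826 (interval 0.525 to 1.30, adjusted p = 0.483), and its highest library was control 6.

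Slco3a1 (ENSMUSG00000025790.15), a broadly expressed member that carries prostaglandins and thyroid hormone, rose in every model liver. It ranged from 24.7 to 52.2 CPM in model (median 31.2) and from 0.675 to 1.84 CPM in control (median 1.30). The lowest model library thus lay above the highest control. The rise was 25.1-fold (95% interval 16.3 to 38.6; log2 fold change 4.65, SE 0.29), and the call held under all 25 alternatives, with log2 fold changes from 4.37 to 4.80. Hepatocyte, neutrophil, monocyte, sinusoidal endothelial, platelet and stellate cell markers moved in the same livers (values above). So did markers of Kupffer cells (3 higher and 3 lower of 8) and of cholangiocytes (5 higher and 1 lower of 6 tested). T and NK cell markers were called higher in 2 and lower in 0 of 3 tested, and B cell markers in 0 of 3 either way. The part of any of these cells in the rise of Slco3a1 was not tested.

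Slco2a1, the prostaglandin transporter, which brings prostaglandins into cells for breakdown, ranged from 23.4 to 65.0 CPM in model (median 30.7) and from 5.40 to 43.5 CPM in control (median 14.6). The groups overlapped through control 3 and control 6, at 24.7 and 43.5 CPM, above the lowest model library. Its fold change was 1.92 (interval 1.08 to 3.40, adjusted p = 0.0569), and the gene was called higher without control 6 (log2 fold change 1.44, adjusted p = 0.00327), with the DESeq2 test (0.92, adjusted p = 0.0476), with limma-voom (1.17, adjusted p = 0.0183) and with an offset for exonic length and GC content (0.86, adjusted p = 0.0096). It was also called with the library numbers as a replicate block over model and control 1 to 6 (1.28, adjusted p = 0.0298 by edgeR). Slco2a1 is known from endothelium, and the summed endothelial markers were higher in every model library than in any control. Of these 8 markers, 4 were called higher and 2 lower. The largest gains in mean CPM were those of Lyve1 (4.77 in control, 119.9 in model) and Cdh5 (7.12 and 81.7). Clec4g (86.1 and 24.8) and Kdr (13.2 and 2.63) were the lower ones, so the sum does not describe all the markers. The part of endothelial cells in the level of Slco2a1 was not tested.

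The remaining Slco genes were at or near the limit of detection. Slco4c1, a carrier known from kidney, had 68 counts over all model and 4 over all control libraries, and Slco4a1, a thyroid hormone carrier, had 45 and 6. Neither passed the filter on low counts. Both were called higher without a filter (log2 fold changes 3.44 and 2.51, adjusted p = 0.00107 and 0.00847) and with the DESeq2 test (3.67 and 2.67). Slco1c1, a thyroid hormone carrier of the blood-brain barrier, had 10 and 2 counts, and Slco1a5 and Slco5a1 had no more than 5 in either group.

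Among the Slc22a genes, 2 of 11 tested were higher and 1 lower (27.3% called, beside 47.9% of all genes). Slc22a3, a cation transporter of many tissues, was at 2.26 ± 0.624 CPM in model and 1.81 ± 0.817 in control, without a call (fold change 1.22, interval 0.780 to 1.92, adjusted p = 0.456). It shares 9.31% of its exonic bases in GRCm38 with Plg, plasminogen, on the other strand, and without a stated strand setting the reads of both cannot be told apart there.

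Of the carnitine and zwitterion carriers, Slc22a4 was called and Slc22a5 and Slc22a15 were not. Slc22a4, the ergothioneine transporter, fell by 0.92 on the log2 scale (SE 0.32, adjusted p = 0.0226 by edgeR), from 2.63 ± 0.759 CPM in control (SD, n = 6) to 1.41 ± 0.627 in model (SD, n = 8). Its ranges, 0.548 to 2.43 CPM in model and 1.93 to 4.03 CPM in control, overlapped, and the call was lost without control 3 (adjusted p = 0.0712) and without model 7 and model 8 (adjusted p = 0.0741). The replicate block also ended the call (log2 fold change -0.73, adjusted p = 0.135 by edgeR). Slc22a5, the high-affinity carnitine transporter, ranged from 8.75 to 43.7 CPM in model (median 17.5) and from 9.12 to 18.8 CPM in control (median 12.6). Model 8 and model 7 were its highest libraries, at 43.7 and 25.6 CPM. The fold change was 1.53 (interval 0.984 to 2.38, adjusted p = 0.104), and it was called higher without model 4 (adjusted p = 0.0415), without control 6 (adjusted p = 0.0499) and without model 3 and model 4 (adjusted p = 0.0201). Without model 7 and model 8 the log2 fold change of Slc22a5 was 0.26 (adjusted p = 0.387 by edgeR), against 0.61 with all libraries. Slc22a15, a carrier of zwitterions, ranged from 6.69 to 21.7 CPM in model (median 15.0) and from 9.30 to 19.3 CPM in control (median 13.5), with a fold change of 1.03 (interval 0.705 to 1.51).

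The organic anion carriers of the Slc22a group were mostly without a call. Slc22a7, a liver transporter of organic anions, ranged from 19.9 to 37.0 CPM in model (median 28.1) and from 5.89 to 27.0 CPM in control (median 19.0), and control 4 was its lowest library. Its fold change was 1.503 (interval 1.02 to 2.22, adjusted p = 0.0777), with calls without model 7 and model 8 (adjusted p = 0.0335), without control 1 (adjusted p = 0.045) or control 6 (adjusted p = 0.0489), and with the length and GC offset (adjusted p = 0.0478). The replicate block gave a call as well. Slc22a30 ranged from 109.5 to 303.1 CPM in model (median 192.1) and from 145.6 to 275.9 CPM in control (median 206.3), and its near-copy Slc22a28 from 7.69 to 33.4 (median 18.3) and from 11.4 to 36.9 CPM (median 28.4). Their fold changes were 0.908 (interval 0.641 to 1.29) and 0.714 (interval 0.436 to 1.17). Because their reads can be confused, the sum is also given: 209.9 ± 76.7 CPM over 8 model and 236.7 ± 54.5 over 6 control libraries (mean ± SD). Reads set aside as aligned to several places are not in this sum, and its difference was not tested.

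Slc22a26, of the same rodent cluster, rose 6.26-fold from a very low level (interval 2.62 to 15.0; log2 fold change 2.65, SE 0.60, adjusted p = 0.00143 by edgeR). It ranged from 0.426 to 2.62 CPM in model (median 1.55) and from 0 to 0.742 CPM in control (median 0.194), and the ranges overlapped through model 3. It passed the filter through 6 model and 1 control libraries, so that it entered the test because of the group in which it was high. The call held in all 23 alternatives that tested it, including the one without a filter on low counts (log2 fold change 2.64, adjusted p = 0.000625 by edgeR). The replicate block and the setting without model 7 and model 8 did not test it, and both leave out these model libraries. Whether the call would hold without them is therefore not known, and the 23 are not a check on how the gene entered the test. Its relatives Slc22a27 and Slc22a29 had 102 and 70 counts over the model and 51 and 32 over the control libraries and were not tested.

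Slc22a18, an imprinted gene whose product resembles drug exporters, was higher in model, at 52.7 ± 10.9 against 35.4 ± 8.24 CPM (fold change 1.48, interval 1.11 to 1.98, adjusted p = 0.0238 by edgeR). It ranged from 35.3 to 68.9 CPM in model (median 56.4) and from 21.3 to 44.4 CPM in control (median 36.7). Model 7 and model 8 were at 39.6 and 35.3 CPM, inside the control range, and the other 6 model libraries were above it. The call was lost with 1 library fewer (model 2, control 2 or control 4; adjusted p = 0.0557 to 0.0694), without both model 3 and model 4 (0.0668), with library totals (0.294), with upper-quartile factors (0.105) and without a filter on low counts (0.0616).

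Slc22a23, whose substrate is not known, split the model libraries. It ranged from 4.21 to 38.4 CPM in model (median 7.27) and from 12.9 to 55.1 CPM in control (median 22.9). Model 1 to model 6, at 4.21 to 10.4 CPM, lay below every control, while model 7 and model 8, at 34.6 and 38.4 CPM, lay above 5 of the 6 controls. With all libraries the gene was not called (fold change 0.534, interval 0.251 to 1.14, adjusted p = 0.159). Without model 7 and model 8 its log2 fold change was -1.94 (adjusted p = 0.000607), and without model 8 alone it was -1.30 (adjusted p = 0.0369). With the replicate block, which also leaves out model 7 and model 8, it was -1.80 (adjusted p = 0.00225 by edgeR).

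**Figure D2:**
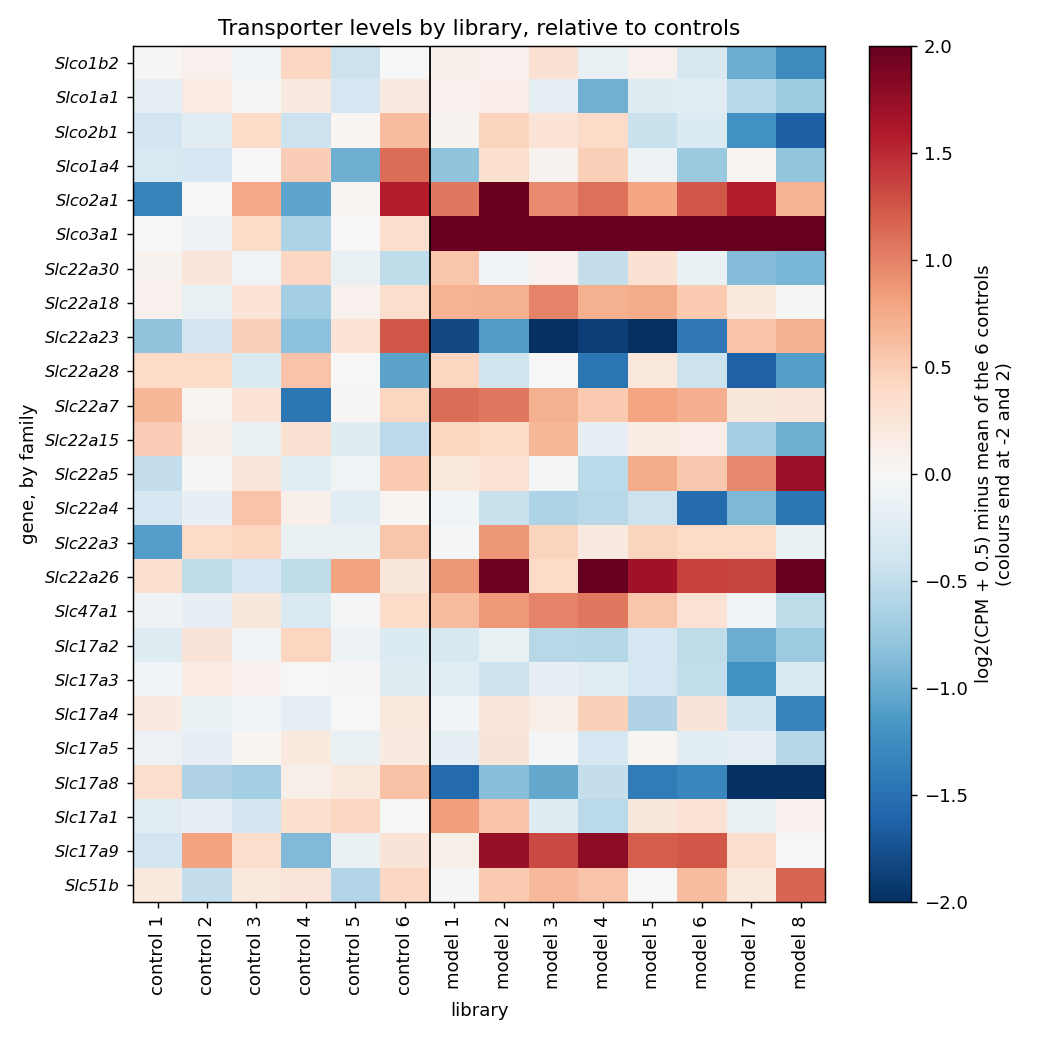
Level of 25 tested transporter genes (rows, by family) in each library (columns), as log2(CPM + 0.5) minus the mean of the 6 controls, with colours ending at -2 and 2. Slco3a1 is high in all 8 model libraries, and model 7 and model 8 differ from model 1 to model 6 at Slc22a23, Slco1b2 and Slco2b1.

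Model 7 and model 8 were the lowest pair of the 8 model libraries for 10 of the 26 genes, among them Slc17a2, Slc17a8, Slc22a7, Slc22a15, Slc22a18, Slc22a30, Slc47a1, Slco1b2 and Slco2b1. That is 38.5%, where the same pair was lowest for 18.0% of all genes tested. They were the highest pair for 2 of the 26, Slc22a5 and Slc22a23 (7.69%, against 21.9% of all genes). These shares describe 2 libraries and were not tested, and the labels give no difference between these livers and the other model livers. Leaving them out gave 5 genes higher and 2 lower among 25 tested.

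Slc47a1 (ENSMUSG00000010122.15), the exporter that passes organic cations into bile, ranged from 29.0 to 86.6 CPM in model (median 62.7) and from 33.4 to 53.7 CPM in control (median 39.6). Model 1 to model 5 lay above every control, and model 6, model 7 and model 8, at 51.0, 39.7 and 29.0 CPM, did not. The fold change was 1.46 (interval 1.04 to 2.05, adjusted p = 0.0631). It was called higher without model 8 (adjusted p = 0.0137), without model 7 (0.0357), without control 6 (0.0329), without both model 7 and model 8 (log2 fold change 0.79, adjusted p = 0.00257), and with the length and GC offset (0.0432). It was called with the replicate block as well (log2 fold change 0.79, adjusted p = 0.0164 by edgeR). Its relative Slc47a2 had 3 counts over all model and 6 over all control libraries.

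Of the 9 Slc17a genes, 7 were tested, with 1 called higher and 2 lower (42.9% called, beside 47.9% of all genes). Slc17a2 (ENSMUSG00000036110.15), the most abundant at 53.8% of all Slc17a CPM in control, fell from 139.2 ± 28.7 CPM in control (SD, n = 6) to 96.6 ± 17.2 in model (SD, n = 8). It ranged from 68.3 to 124.6 CPM in model (median 94.6) and from 113.6 to 184.4 CPM in control (median 128.8), with an overlap through model 2. The log2 fold change was -0.53 (SE 0.18, adjusted p = 0.0196 by edgeR), and the call was lost without control 2 (adjusted p = 0.0511), control 4 (0.054), model 3 and model 4 (0.0500063) or model 7 and model 8 (0.0697), and without a filter on low counts (0.0515). The replicate block ended the call too (log2 fold change -0.36, adjusted p = 0.145 by edgeR). Slc17a3, a urate exporter, was at 39.3 ± 7.63 CPM in model and 51.9 ± 4.81 in control, ranging from 22.0 to 45.9 and from 43.8 to 57.9 CPM. Its fold change was 0.758 (interval 0.591 to 0.971, adjusted p = 0.0606), and it was called lower without model 2 (adjusted p = 0.0483), with library totals (0.00506), upper-quartile factors (0.022) and the DESeq2 test (0.0361).

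Slc17a8 (ENSMUSG00000019935.17), a vesicular glutamate transporter known from nerve cells, had the lowest log2 fold change of the transporter genes with all libraries; without model 7 and model 8, Slc22a23 was lower still (-1.94, against -1.11). It ranged from 1.31 to 12.7 CPM in model (median 6.71) and from 11.0 to 27.2 CPM in control (median 20.2). Model 4 was the model library that reached into the control range, and model 8 was the lowest. The fall was 2.72-fold (log2 fold change -1.45, SE 0.36, adjusted p = 0.00291 by edgeR), and the call held under all 25 alternatives, at -1.72 to -1.09. Its relatives Slc17a6 and Slc17a7, the other vesicular glutamate transporters, had 0 and 2 counts over all libraries.

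Slc17a9, the vesicular nucleotide transporter that loads ATP for release, was higher in model, at 4.19 ± 2.11 CPM against 1.82 ± 0.924 (fold change 2.28, interval 1.28 to 4.06, adjusted p = 0.0194 by edgeR). Its ranges, 1.66 to 7.02 and 0.675 to 3.29 CPM, overlapped. Library totals (adjusted p = 0.0679) ended the call, as did leaving out model 2 (0.0559) or both model 3 and model 4 (0.0622). Slc17a5, the lysosomal sialic acid exporter sialin, ranged from 12.7 to 22.7 CPM in model (median 16.7) and from 16.97 to 21.9 CPM in control (median 18.6), with a fold change of 0.902 (interval 0.706 to 1.15). Slc17a4 ranged from 7.52 to 27.6 and from 17.4 to 23.0 CPM, and Slc17a1 from 3.70 to 10.4 and from 4.27 to 7.66 CPM, with fold changes of 0.946 (interval 0.665 to 1.35) and 1.13 (interval 0.789 to 1.61).

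The organic solute transporter, a dimer of Slc51a and Slc51b that exports bile acids to blood, was hardly detected. Slc51a had 1 count over all 14 libraries. Slc51b, which passed the filter with 5 model and 2 control libraries, had a mean of 0.917 ± 0.405 CPM in model against 0.528 ± 0.271, with a fold change of 1.70 (interval 0.962 to 3.02, adjusted p = 0.115). It shares 12.8% of its exonic bases with Rasl12 on the other strand in GRCm38.

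**Figure D3:**
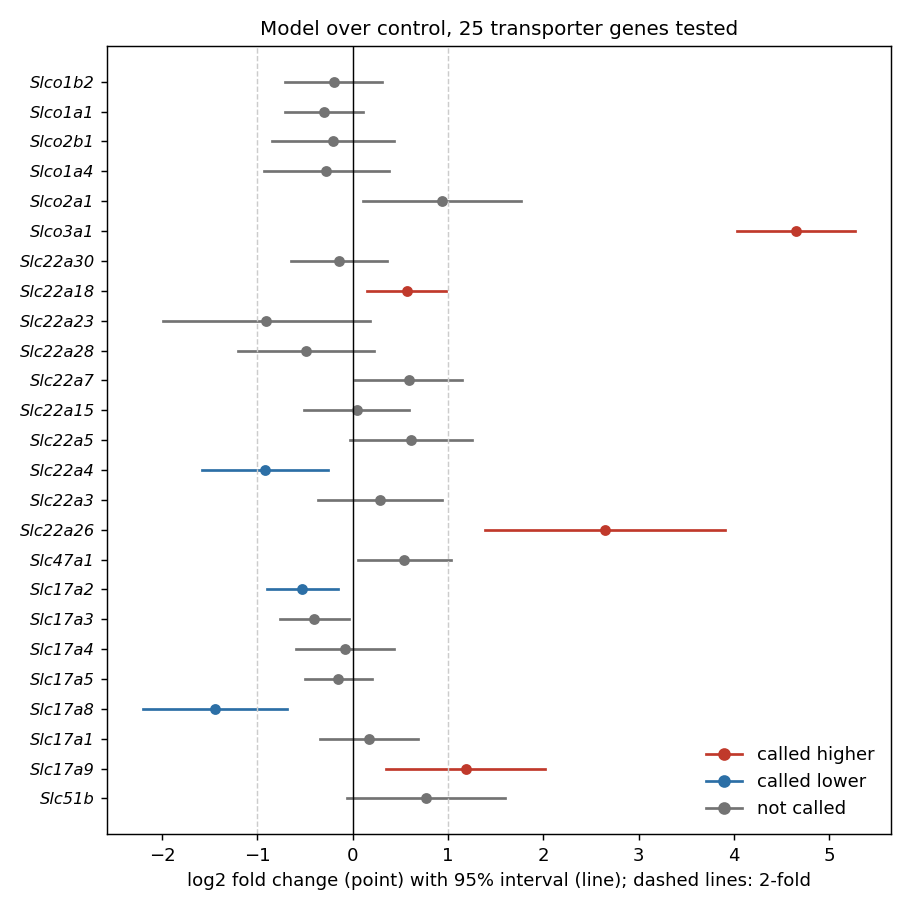
Log2 fold change of model over control for 25 of the 26 genes tested (points) with 95% intervals (lines), coloured by edgeR's call; dashed lines mark 2-fold. The points of Slco3a1 (4.65), Slc22a26 (2.65), Slc17a9 (1.19) and Slc17a8 (-1.45) are those past 2-fold.

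Genes that work with these transporters were compared in lists chosen by function. Of 15 genes of bile salt uptake and ATP-driven efflux, 5 were called higher and 2 lower, a share near the 47.9% of all genes called. Slc10a1, the sodium-dependent bile acid uptake transporter of hepatocytes, was at 279.4 ± 63.3 CPM in model and 334.8 ± 127.9 in control (log2 fold change -0.26, SE 0.23, adjusted p = 0.369), so that it too was not called. Of the canalicular pumps, Abcb11 for bile salts was higher (0.64, SE 0.25, adjusted p = 0.0415), and Abcc2 for bilirubin conjugates was not called (0.43, SE 0.36). Of the basolateral exporters, Abcc4 rose to 3.35 ± 1.84 CPM from 1.30 ± 0.380 (1.36, SE 0.36), and Abcc3 was not called (0.64, SE 0.30, adjusted p = 0.0882). Abcb1b, a drug efflux pump, rose by 2.80 (SE 0.31), Slc10a2, the sodium-dependent bile acid carrier of ileum and bile ducts, by 1.68 (SE 0.30), and Abcg8, a canalicular sterol exporter subunit, fell by 1.85 (SE 0.29). The cholangiocyte markers were called higher in 5 and lower in 1 of 6 tested, and their part in the level of Slc10a2 was not tested.

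Of 16 transcriptional regulators of hepatic transporters, 9 were called lower and 1 higher, where 21.3% of all genes were called lower and 26.6% higher. Their median log2 fold change was -1.01, beside 0.01 for all genes. Nr1h4, the bile acid receptor, and Nr0b2, the repressor it induces, fell by 2.18 (SE 0.15) and 2.15 (SE 0.50) on the log2 scale. Hnf4a was not called (0.84, SE 0.39, adjusted p = 0.0867) and ranged from 154.7 to 1012 CPM in model. Nfe2l2, the oxidative stress factor, rose by 1.59 (SE 0.20). The difference between the regulators and the transporter genes was not tested.

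**Figure D4:**
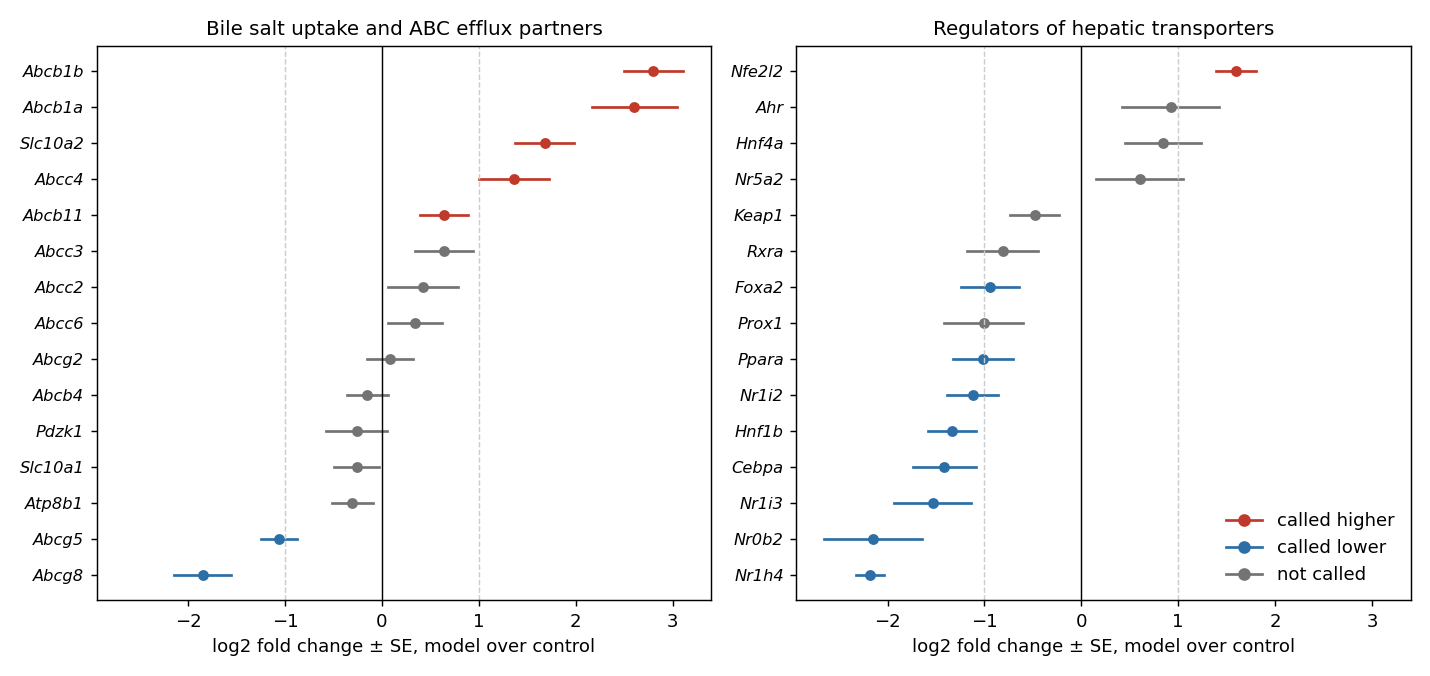
Log2 fold change with its SE for 15 genes of bile salt uptake and ABC efflux (left) and 15 of the 16 regulators of hepatic transporters (right), coloured by edgeR's call; dashed lines mark 2-fold. Most regulators lie left of 0, with Nr1h4 at -2.18 the lowest.

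Genes that handle the cargo of these transporters were counted in the same way, and each count is to be read against the 26.6% of all genes called higher and 21.3% called lower. Beside the carnitine transporters Slc22a4 and Slc22a5, 4 of 12 tested genes of carnitine use and synthesis were lower and 0 higher. They included Cpt1a, which joins carnitine to fatty acids (log2 fold change -1.41, SE 0.38), Bbox1, the last enzyme of carnitine synthesis (-0.998, SE 0.24), and Slc25a20, the mitochondrial carnitine shuttle (-0.78, SE 0.20). Beside the urate carriers of the Slc17a group, 4 of 9 genes of purine breakdown were higher and 2 lower: guanine deaminase Gda rose by 2.32 (SE 0.21), xanthine dehydrogenase Xdh by 2.30 (SE 0.39) and the phosphorylase Pnp by 1.32 (SE 0.19). Of 9 genes tested of amine, choline and thiamine handling, 1 was higher, the choline carrier Slc44a1 (0.70, SE 0.16), and 1 lower, Slc18b1. Around sialin, 2 of 9 genes rose, the lysosomal genes Ctsa (0.62, SE 0.16) and Lamp1 (0.58, SE 0.15), and 2 fell, among them Gne, the first enzyme of sialic acid synthesis (-1.38, SE 0.28).

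Around the prostaglandin carriers Slco2a1 and Slco3a1, 3 of 10 tested genes of prostaglandin synthesis, reception and breakdown were higher and 2 lower, a share near the 47.9% of all genes called. Ptgs2, the inducible cyclooxygenase, had no count in any control and was at 26.5 ± 12.1 CPM in model, at least 661-fold higher against 3 counts over the control group. Ptgs1, the constitutive form, fell by 1.88 (SE 0.22), and Ptgr2, an enzyme of prostaglandin breakdown, by 0.72 (SE 0.22).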

How the data were processed

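Liver RNA libraries of 8 model and 6 control mice were grouped by the labels. The authors deposited raw read counts per gene, 1 file per library. Reads were aligned with HISAT2 to GRCm39, per the submitters' processing notes; neither the counter nor its strand setting and gene annotation is named in these sources. The 5 summary lines of each file, 27.4% to 45.6% of its entries, were left out. Over 43 pairs within groups, no libraries agreed within sampling noise (lowest chi-square per degree of freedom 23.3, genes with at least 20 counts).

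Genes were kept with filterByExpr and tested with edgeR 4.0.16 in R 4.3.3 (TMM factors, robust quasi-likelihood fit, group as the only term, Benjamini-Hochberg adjustment over 12915 genes), after the code was tested on simulated data. SEs were derived from the quasi-likelihood F statistic, and 95% intervals from them with the t quantile of the fit's degrees of freedom. Alternatives used DESeq2 1.42.0, limma 3.58.1 (voom), other scaling factors, filters and subsets of libraries. Exonic length (union of exons) and overlaps came from GENCODE M21, built on GRCm38. No gene coordinates of that build are used with the counts.

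The transporter genes and lists were chosen with earlier results of these data known. By rule, tested transporter genes are named, those at 5 CPM or more in a group with their range, and up to 3 called genes of each partner list with the largest change at 5 CPM or more, besides a few fixed by name. Results for 1 transporter gene and 1 regulator are not reported here.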

Additional observations from a re-analysis of the deposited data

Results flagged for a closer look

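For Slc17a3, model 7 stood apart from the other model libraries: it was at 22.0 CPM, and the other 7 were at 36.7 to 45.9 CPM. This was 1 of 52 groups examined (26 genes in both groups), and chance alone flags about 1 in 20.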

How the results depend on the processing

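With all libraries, 4 transporter genes were called higher and 3 lower. The count of higher calls moved to 2 with library totals, to 7 after correcting for length and GC content, and to 7 under the DESeq2 test, which also tested more of the genes (38 in place of 26) and called Slco4a1 and Slco4c1 among those added, and the count of lower calls to 6 with library totals. Leaving out 1 library at a time gave 2 to 8 higher and 2 to 4 lower. Of 282 values of single genes under the other alternatives, 252 kept their direction where called and their side of the threshold, 12 lost a call, 18 gained one and 0 reversed. Of 364 values with 1 library left out, 347 kept both, 7 lost a call and 10 gained one. The cause of these changes was not tested. The numbers in the titles were also used as a replicate block over model and control 1 to 6, which gave 6 higher and 2 lower, against 5 and 2 for the same 12 libraries without the block. The numbers share no stated origin, and the deviations of libraries with the same number correlated at -0.34 to 0.36, over 0.1 in 1 of 6 pairs, with 1 of 6 model libraries closest to the control of its own number. Of the 28 genes not tested, 17 had some counts, and whether depth or a lack of RNA kept the 28 low was not tested.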
